A study of Mus musculus with 66 samples.

Results

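The oxidative phosphorylation genes were taken by symbol, as every gene whose symbol begins with Nduf, Uqcr or Atp5, or with Cox and a digit from 4 to 8, together with Sdha, Sdhb, Sdhc and Sdhd. They numbered 89 of the 15856 genes in the 3'READS table, where they held 174 of the 59578 polyadenylation (pA) sites, and 47 of the 9999 genes in the RNA-seq table. All 47 were also in the 3'READS table, and 42 were measured by 3'READS alone. The 89 genes comprised 36 subunits of complex I, 4 assembly factors of complex I, 4 subunits of complex II, 8 of complex III, 19 of complex IV (with Ndufa4, which is named for complex I but belongs to complex IV) and 15 of complex V. The remaining 3, Cox4nb, Atp5sl and Atp5s, match the rule by symbol but encode no subunit.

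Oxidative phosphorylation takes place in the inner mitochondrial membrane. Complexes I and II take electrons from NADH and succinate, complex III passes them to cytochrome c, complex IV hands them to oxygen, and the proton gradient that complexes I, III and IV build drives ATP synthesis by complex V. Most subunits are encoded in the nucleus and imported, a few are encoded by mitochondrial DNA and are outside the rule, and muscle exchanges several complex IV subunits for muscle forms as it differentiates.

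The cells were C2C12, proliferating muscle precursors of an established mouse line, taken 48 h after transfection of siRNA at 50 nM. The siRNA was nonspecific (siCtrl, named siNS in the labels) or directed at Paf1, at Cdc73 or at Ski8, which are 3 subunits of the Paf1 complex, a factor that travels with RNA polymerase II. RNA-seq and 3'READS, which sequences the 3' ends of poly(A)+ RNA, each had 7 libraries, where batches 1 and 2 each held 1 siCtrl, 1 siPaf1 and 1 siCdc73 library, and the only siSki8 library was in batch 2. All groups are the same cell line with transient knockdown, and the labels do not say that the libraries of a group came from separate cultures, so p-values measure the spread between libraries.

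The depth was 2796693 to 8160386 reads in RNA-seq and 5302728 to 14340927 PASS reads (reads with at least 2 non-genomic T at their start) in 3'READS. The oxidative phosphorylation genes took 1.09% to 2.49% and 1.59% to 2.35% of them. The targeted genes fell in their own libraries: by 2.38 (Paf1), 2.56 (Cdc73) and 4.16 (Wdr61, the gene of Ski8) on the log2 scale in RNA-seq and by 2.63, 2.06 and 3.65 in 3'READS. Of 6 myoblast markers 5 were listed in RNA-seq, with a summed level of 16700 to 37800 CPM (counts scaled to equal library size by TMM). None of these 5 was under 1 CPM in every RNA-seq library. In 3'READS, where all 6 were listed, the defining markers Myod1 and Pax7 stayed under 1 CPM in every library. In 3'READS, 315 genes were at least 20-fold higher in the siPaf1 library of batch 2 than in every other library, and 0 of them were oxidative phosphorylation genes, so counts are also given without that library. Top2a, a marker of dividing cells, fell by 2.59 in siPaf1 and 2.09 in siCdc73 (log2, RNA-seq), the epithelial keratin Krt8 rose by 6.13 in siCdc73, and Hba-a1 reached 40.5 CPM in the siCdc73 library of batch 2 against at most 4.54 elsewhere. Of 4 adipocyte markers 2 were listed in RNA-seq, with a summed level, nearly all of it Pparg, of 41.8 to 68.1 CPM in siCtrl, 12.2 to 13.7 in siPaf1, 35.6 to 46.3 in siCdc73 and 137 in siSki8, and in 3'READS 3 were listed with at most 2.65. The 3 endothelial markers, mostly Kdr, summed to 23.4 to 28.5 CPM in siCtrl, 3.48 to 15.9 in siPaf1, 5.21 to 6.89 in siCdc73 and 3.53 in siSki8 in 3'READS, and the 2 listed in RNA-seq stayed under 1 CPM each. The part of these shifts in the changes below was not tested, and in such bulk samples fewer cells of a type and less RNA per cell cannot be told apart.

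By RNA-seq the genes of this pathway were among the more abundant of the cell. On the authors' RPKM scale, which is per kilobase, the 43 that passed the filter on low counts had a median of 162 against 12.4 over all 6521 genes tested. Atp5b, the catalytic beta subunit of ATP synthase, was the highest, with a mean of 1210 RPKM over the 7 libraries. Within complex I the mean went from 556 RPKM for Ndufa8, an accessory subunit that faces the intermembrane space, to 10.9 for Ndufab1, the mitochondrial acyl carrier protein. Complex II was represented by Sdhd (96.2 RPKM), a membrane anchor, and Sdha (72.0), the flavoprotein that oxidises succinate, and complex III ranged from Uqcrh (390), the hinge protein, to Uqcrc1 (127), a core protein. In complex IV the span was widest, from Ndufa4 (861 RPKM) to Cox6b2 (0.122), a testis form.

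The forms of complex IV subunits that mark heart and skeletal muscle were near the bottom. Cox8a, the form found in most tissues, had a mean of 438 RPKM and its muscle counterpart Cox8b 0.300. Cox6a1 stood at 252 RPKM and the muscle form Cox6a2 at 0.431. Cox7a1, the muscle form of subunit VIIa, was read at 4.41 RPKM, and Cox4i2, the lung form of subunit IV, at 0.277. All 4 of these low forms were measured by few reads, 95 for Cox7a1 and 12 or fewer for Cox4i2, Cox6a2 and Cox8b over the 7 libraries, so the order of the last 3 is not resolved.

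**Figure D1:**
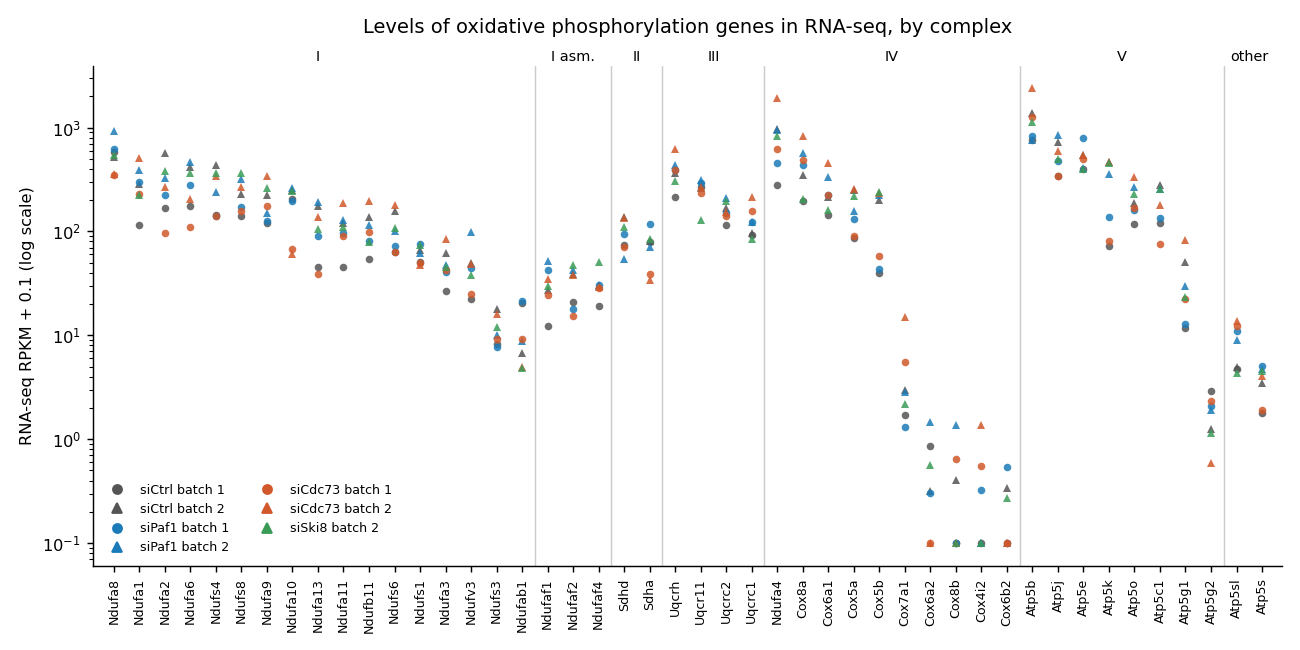
RPKM plus 0.1 on a log axis for genes of the RNA-seq table, grouped by complex and ordered by mean, with 1 point per library (color: siRNA, circle: batch 1, triangle: batch 2, points at the bottom: 0 RPKM). Most genes lie between 10 and 1000 RPKM, Atp5b is the highest with a mean of 1210, and Cox6a2, Cox8b, Cox4i2, Cox6b2 and Cox7a1 sit far below the rest of complex IV.

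The siCtrl libraries of the 2 batches differed more for these genes than siPaf1 or siCdc73 did from siCtrl. Between the siCtrl libraries, the median oxidative phosphorylation gene was higher in batch 2 than in batch 1 by 0.96 on the log2 CPM scale in RNA-seq, with 40 of 43 higher and 19 of them by more than 1, whereas the median over all genes was 0.00. The median absolute difference was 1.00 between the siCtrl batches, against 0.46 and 0.42 for siPaf1 and 0.64 and 0.49 for siCdc73 when each was compared with siCtrl of its own batch. Coding regions of these genes were short (median 468 bases against 1455 over all genes), and genes with short coding regions went the same way in general: the median difference between the siCtrl batches over all genes was 0.68 for coding regions under 500 bases and -0.04 for longer ones. Within the oxidative phosphorylation genes these medians were 1.33 (n = 23) and 0.76 (n = 20). In 3'READS the median difference was -0.07, with 38 of 82 higher in batch 2. The median absolute difference there was 0.72 between the siCtrl batches, against 0.4 and 0.44 for siPaf1 and 0.65 and 0.62 for siCdc73.

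**Figure D2:**
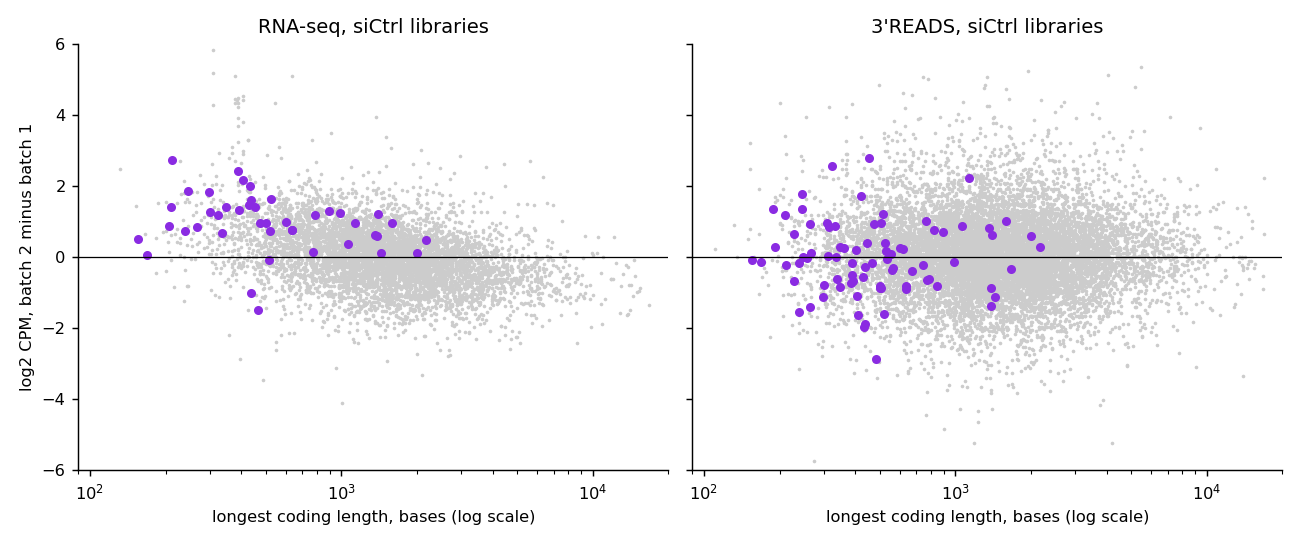
Difference between the siCtrl libraries (log2 CPM, batch 2 minus batch 1) against the longest coding length of each gene (log axis), for RNA-seq and 3'READS, with oxidative phosphorylation genes in purple and all other tested genes in gray. In RNA-seq 40 of 43 purple points lie above 0 and the gray cloud slopes down with length; in 3'READS the purple points lie on both sides of 0.

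The question of the comparisons was whether depletion of Paf1, Cdc73 or Ski8 moved these genes. In the edgeR test without a batch term 0 oxidative phosphorylation genes passed an adjusted p of 0.05 in any knockdown and either assay, where the share over all genes was also 0.0%. At an unadjusted p under 0.05 that test had 2 higher and 0 lower in siPaf1, 5 and 2 in siCdc73 and 1 and 0 in siSki8 in RNA-seq, and 1 and 0, 1 and 6, and 1 and 0 in 3'READS. Over all genes these shares were 8.77% and 8.96%, 9.94% and 11.2%, and 2.45% and 3.08% in RNA-seq, and 7.08% and 6.46%, 6.92% and 8.42%, and 1.42% and 1.92% in 3'READS. DESeq2, also without a batch term, called 0 in siPaf1 and siSki8, and in siCdc73 2 higher and 1 lower in RNA-seq and 1 and 1 in 3'READS, where it called 4.23% and 4.55%, and 3.17% and 3.23%, of all genes with an adjusted p. In siPaf1 these shares were 2.68% and 3.3%, and 2.33% and 1.95%, and in siSki8 0.046% and 0.0307%, and 0.0% each way. With the batch in the edgeR fit (the labels pair the libraries by batch) the biological coefficient of variation of all genes went from 0.397 to 0.179 in RNA-seq and from 0.515 to 0.247 in 3'READS. Hereafter rose and fell mean an adjusted p under 0.05 in the fit with the batch, and edgeR made none of these expression calls without the batch.

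With the batch in the fit, 7 of the 43 genes rose and 0 fell after siPaf1 in RNA-seq, where 16.3% of all genes rose and 16.2% fell, so the share that rose was 16.3% in both sets. For siCdc73 these counts were 16 and 4, where 19.4% of all genes rose and 20.5% fell (39.9% in either direction). After siSki8, 1 rose and 0 fell (2.93% and 2.5% over all genes, 5.43% together). In 3'READS, 5 of 82 genes rose and 3 fell after siPaf1 (9.74% and 9.08% over all genes), 8 went up and 9 down with siCdc73 (10.8% and 11.8%), and none passed after siSki8, a count of 0 (0.0795% and 0.0715%), with 6 higher at an unadjusted p under 0.05, as were 5.75% of all genes. The median over the members was 0.28, 0.26 and 0.16 on the log2 scale in RNA-seq for siPaf1, siCdc73 and siSki8, and 0.04, 0.13 and 0.24 in 3'READS, against all-gene medians between -0.05 and 0.08. Without the batch the siSki8 medians were 0.38 in RNA-seq and 0.04 in 3'READS, and against siCtrl of batch 2 alone they were 0.06 and 0.16. The siCdc73 median in RNA-seq was 0.28 within batch 1 and 0.20 within batch 2, whereas the siPaf1 median was 0.46 and 0.11 in RNA-seq and 0.23 and -0.19 in 3'READS.

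These counts moved with the libraries and the scaling. Without the siPaf1 library of batch 2 they were 14 rising and 0 falling for siPaf1 and 18 and 7 for siCdc73 in RNA-seq (15.5% and 14.6%, and 25.3% and 26.7%, over all genes in the same fits), and 8 and 1, and 21 and 15, in 3'READS (6.8% and 7.13%, and 16.7% and 17.7%). Without the siPaf1 library of batch 1, the siPaf1 counts became 5 rising and 7 falling in RNA-seq (17.8% and 18.5%) and 6 and 8 in 3'READS (12.8% and 11.6%), and the siCdc73 counts 18 and 7 (25.9% each way) and 21 and 15 (15.2% and 16.0%). Without siCtrl of batch 2 the siPaf1 counts in 3'READS became 0 and 1 (2.86% and 3.38%) and the siCdc73 counts 2 and 4 (4.93% and 6.13%), and without siCtrl of batch 1 the latter became 2 and 7 (6.4% and 8.06%). Without siCtrl of batch 1 the siPaf1 counts in RNA-seq became 3 and 0 (9.81% and 11.2%) and the siCdc73 counts 9 and 4 (12.3% and 12.9%), and without the siCdc73 library of batch 2 the latter became 4 and 3 (8.38% and 10.2%). The RNA-seq counts for siCdc73 were 13 and 1 without siCtrl of batch 2 (10.4% and 11.7%) and 15 and 1 without siCdc73 of batch 1 (12.0% and 11.7%). Over the fits that left out each library in turn, 3 of the 7 siPaf1 calls in RNA-seq (Ndufaf1 and Ndufv3 among them) and 5 of the 20 siCdc73 calls (among them Atp5sl, Cox8a, Ndufa10 and Ndufa4) were made every time, and in 3'READS 0 of the 8 siPaf1 calls and 3 of the 17 siCdc73 calls (Atp5g2, Ndufa10 and Ndufa8). The other calls depended on at least 1 library, and no call changed direction in these fits. Scaling by library size alone in place of TMM moved the median of all genes by -0.17 in siCdc73 and -0.26 in siSki8 in RNA-seq. It changed the siCdc73 split from 16 and 4 to 14 and 7, where 14.8% of all genes then rose and 27.0% fell. For siSki8 it took the single rising call away and gave 1 falling gene, where 1.3% of all genes then rose and 6.07% fell. It also turned the siSki8 median from 0.16 to -0.10.

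**Figure D3:**
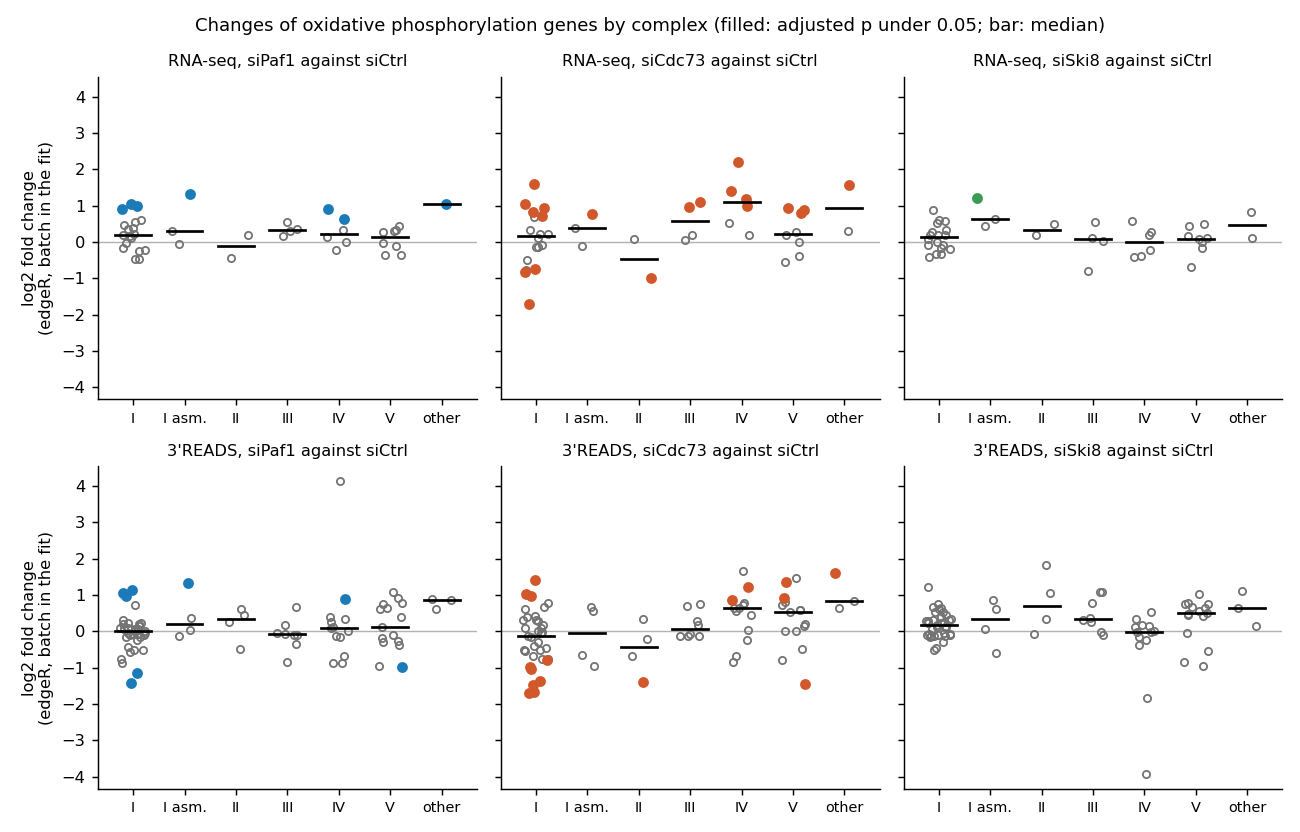
Log2 fold change against siCtrl in the edgeR fit with the batch, for each tested oxidative phosphorylation gene by complex (I asm.: assembly factors of complex I; other: Cox4nb, Atp5sl and Atp5s), in RNA-seq (upper row) and 3'READS (lower row). Filled points passed an adjusted p of 0.05 and bars are medians; after siCdc73 in RNA-seq 4 of 6 complex IV genes are filled and above 0 (19.4% of all genes rose and 20.5% fell), and complex I holds filled points on both sides of 0.

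Complex I held changes in both directions after siCdc73, as did all genes (19.4% rose and 20.5% fell in RNA-seq, 10.8% and 11.8% in 3'READS). In RNA-seq 5 of its 18 tested subunits rose and 3 fell, with a median of 0.17 (4 and 5, with a median of -0.01, under library size alone), and in 3'READS 3 of 35 rose and 7 fell, with a median of -0.13. Of the RNA-seq calls 1 and 3 were kept without siCtrl of batch 1, 5 and 1 without siCtrl of batch 2 or siCdc73 of batch 1, and 1 and 2 without siCdc73 of batch 2. After siPaf1, 3 of 18 rose and 0 fell in RNA-seq (16.3% and 16.2% over all genes), and 3 of 35 rose and 2 fell in 3'READS (9.74% and 9.08%).

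Ndufa10, an accessory subunit of the membrane arm, fell in both assays after siCdc73. In RNA-seq it was read at 546 and 711 CPM in siCtrl (batch 1, batch 2), 510 and 724 in siPaf1, 191 and 190 in siCdc73 and 826 in siSki8. In 3'READS the values were 121 and 222 CPM in siCtrl, 147 and 153 in siPaf1, 56.5 and 47.1 in siCdc73 and 188 in siSki8. Both siCdc73 libraries were below every other library in both assays. Ndufa10 fell by 1.70 ± 0.23 in RNA-seq (edgeR adjusted p = 8.53e-07) and by 1.70 ± 0.31 in 3'READS (edgeR adjusted p = 0.00144), and was -0.03 ± 0.22 and -0.17 ± 0.30 in siPaf1. The difference between the knockdowns was itself past the threshold, with siPaf1 over siCdc73 by 1.67 ± 0.23 (edgeR adjusted p = 3.29e-06) and 1.53 ± 0.31 (edgeR adjusted p = 0.00466).

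Other accessory subunits fell after siCdc73 in 1 assay or the other. Ndufa8 was read by 3'READS at 1550 and 3590 CPM in siCtrl, 1190 and 2090 in siPaf1, 518 and 1390 in siCdc73 and 2580 in siSki8, so the siCdc73 libraries were lowest within each batch but overlapped siPaf1 between batches. It fell by 1.47 ± 0.27 (edgeR adjusted p = 0.00143), while RNA-seq gave -0.50 ± 0.22 (edgeR adjusted p = 0.0747). Ndufa6 and Ndufa2, further accessory subunits, fell by 0.74 ± 0.23 and 0.82 ± 0.25 in RNA-seq (edgeR adjusted p = 0.0097 and 0.0101), and both calls were lost without siCtrl of batch 2 (0.01 and 0.32 in the test without a batch term) or without siCdc73 of batch 1. Ndufa6 in 3'READS was -0.76 ± 0.27 (edgeR adjusted p = 0.0516). Ndufb4, a small membrane subunit, and Ndufab1 fell in 3'READS after both siPaf1 (1.14 ± 0.30 and 1.41 ± 0.43) and siCdc73 (1.37 ± 0.31 and 1.66 ± 0.44), with edgeR adjusted p from 0.00498 to 0.0322, and both siPaf1 calls were lost without siPaf1 of batch 2 or siCtrl of batch 2, and both siCdc73 calls without siCdc73 of batch 1. Ndufb4 was not in the RNA-seq table, and Ndufab1 there gave 0.18 and -0.76 with neither past the threshold (edgeR adjusted p = 0.722 and 0.0894). The other complex I subunits that fell after siCdc73 in 3'READS, named here to complete the count, were Ndufb3, Ndufb9 and Ndufv2, by 0.99, 1.05 and 0.79.

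Ndufv3, a small accessory subunit of the NADH-oxidising arm, rose after siPaf1 in both assays. RNA-seq gave 77.4 and 181 CPM in siCtrl, 151 and 364 in siPaf1, 94.3 and 201 in siCdc73 and 169 in siSki8, so the siPaf1 value was the highest of each batch while the groups overlapped between batches. The siPaf1 change was 0.98 ± 0.23 in RNA-seq (edgeR adjusted p = 0.00143) and 0.96 ± 0.28 in 3'READS (edgeR adjusted p = 0.0265). In 3'READS both siPaf1 libraries (199 and 189 CPM) were above the other 5, which spanned 77.3 to 125. The 3'READS call was nevertheless lost without either siCtrl library or siPaf1 of batch 1. In siCdc73 Ndufv3 was 0.22 ± 0.23 and -0.13 ± 0.28, and siPaf1 exceeded siCdc73 by 0.77 and 1.09 (edgeR adjusted p = 0.0136 and 0.0189). Ndufa1, which is essential for assembly of the membrane arm, rose in RNA-seq after siPaf1 (0.91 ± 0.25, edgeR adjusted p = 0.00588) and siCdc73 (1.04 ± 0.25, edgeR adjusted p = 0.00126), and Ndufa9, Ndufa11 and Ndufb11 rose after siCdc73 by 0.72, 0.94 and 0.81, although Ndufa9 lost its call under library size alone (edgeR adjusted p = 0.0523). The siPaf1 call of Ndufa1 was lost without siCtrl or siPaf1 of batch 1. All of these siCdc73 calls were lost without siCtrl of batch 1 or siCdc73 of batch 2.

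Among the core subunits, Ndufs1, which carries iron-sulfur clusters, stayed within 1.87-fold over the 7 RNA-seq libraries and had changes of 0.21, -0.13 and 0.61 in siPaf1, siCdc73 and siSki8 with none past the threshold. Ndufv1, the NADH-binding subunit, was measured by 3'READS alone and had -0.23, -0.51 and -0.29. Among the assembly factors of complex I, Ndufaf1 rose after siPaf1 in both assays by 1.32 (SE 0.26 in RNA-seq and 0.38 in 3'READS, edgeR adjusted p = 0.000175 and 0.0249). Its RNA-seq levels were 30.2 and 71.3 CPM in siCtrl, 102 and 134 in siPaf1, 64.2 and 101 in siCdc73 and 94.0 in siSki8, and both siPaf1 libraries were above both siCtrl libraries. Its 3'READS levels were 156 and 141 CPM in siCtrl, 490 and 254 in siPaf1, 142 and 327 in siCdc73 and 272 in siSki8, so the siCdc73 libraries went apart, and the 3'READS call was lost without siCtrl of batch 2 or siPaf1 of batch 1. After siCdc73 it rose in RNA-seq by 0.77 ± 0.25 (edgeR adjusted p = 0.016, and 0.0571 under library size alone). That call was lost without siCtrl of batch 1 or either siCdc73 library. Ndufaf4 was the 1 gene that rose after siSki8, from 24.7 and 41.4 CPM in siCtrl to 83.7, by 1.21 ± 0.32 (edgeR adjusted p = 0.0265, and 0.0657 under library size alone). Its siSki8 value rests on 1 library, its call was lost when either siCtrl or either siCdc73 library was left out, and 3'READS gave 0.60 ± 0.46 (edgeR adjusted p = 0.689).

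In complex II, Sdha and Sdhc fell after siCdc73, each in 1 assay. Sdha had 388 and 419 CPM in siCtrl, 571 and 370 in siPaf1, 209 and 197 in siCdc73 and 533 in siSki8 in RNA-seq, with both siCdc73 libraries below the rest. It fell by 1.00 ± 0.23 (edgeR adjusted p = 0.00102), and in 3'READS it was -0.68 ± 0.28 (edgeR adjusted p = 0.0925), again with both siCdc73 libraries (162 and 168 CPM) below the other 5 (213 to 321). Sdhc, a membrane anchor, fell by 1.4 ± 0.31 in 3'READS (edgeR adjusted p = 0.00444) from 30.8 and 60 to 15.0 and 18.5 CPM, with siPaf1 at 30.2 and 32.3 and siSki8 at 64.4. Sdhc was not in the RNA-seq table, and its call was lost without siCtrl of batch 2. The RNA-seq call of Sdha was lost without siCtrl of batch 2 or siCdc73 of batch 1. Sdhb, the iron-sulfur subunit, was -0.21 ± 0.27 in siCdc73 and 1.05 ± 0.34 in siSki8 (edgeR adjusted p = 0.640 and 0.231).

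Complex III rose in part after siCdc73 in RNA-seq, where 2 of its 4 tested subunits rose and 0 fell (19.4% and 20.5% over all genes), also under library size alone. Both calls were lost without the siCdc73 library of batch 2, and that of Uqcrh without siCtrl of batch 1. Uqcrc1 rose by 1.09 ± 0.22 (edgeR adjusted p = 0.000293), from 334 and 364 CPM in siCtrl to 607 and 899, with siPaf1 at 430 and 468 and siSki8 at 392. Uqcrh rose by 0.95 ± 0.23 (edgeR adjusted p = 0.00157). In 3'READS 0 of 8 subunits passed the threshold in any knockdown. At an unadjusted p under 0.05 in edgeR, 1 was lower in siPaf1, 2 were higher in siCdc73 and 1 was higher in siSki8. The matching shares of all genes were 15.6%, 17.0% and 5.75%. Uqcrc1 and Uqcrh had 0.76 ± 0.32 and 0.70 ± 0.28 there in siCdc73 (edgeR adjusted p = 0.105 and 0.0868). Uqcrfs1, the Rieske iron-sulfur protein, was measured by 3'READS alone, with -0.12 ± 0.31 in siCdc73 and 0.66 ± 0.32 in siPaf1.

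Complex IV had the highest median of the complexes with more than 2 tested genes after siCdc73. In RNA-seq it was 1.09 over 6 tested genes (0.99 within batch 1, 1.19 within batch 2, and 0.92 under library size alone), and 4 rose and 0 fell (19.4% and 20.5% over all genes), of which 2 were left without siCtrl or siCdc73 of batch 2. In 3'READS the median was 0.64 over 13 genes (0.54 under library size alone), with 2 rising and 0 falling (10.8% and 11.8% over all genes), or 1 and 1 under library size alone (9.33% and 13.9%), and both calls were lost without siCtrl of batch 1. Ndufa4 stood at 174 and 636 CPM in siCtrl, 278 and 612 in siPaf1, 411 and 1400 in siCdc73 and 660 in siSki8. The siCdc73 library was the highest of each batch, but the groups overlapped because batch 2 was higher throughout. Its change was 1.18 ± 0.23 (edgeR adjusted p = 0.000144) in RNA-seq and 0.72 ± 0.32 in 3'READS (edgeR adjusted p = 0.120).

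Cox8a rose after both siPaf1 (0.91 ± 0.23, edgeR adjusted p = 0.00301) and siCdc73 (1.41 ± 0.23, edgeR adjusted p = 1.54e-05) in RNA-seq, from 103 and 191 CPM in siCtrl to 221 and 311 and to 273 and 509, with siSki8 at 138. All siPaf1 and siCdc73 libraries were above both siCtrl libraries. The siPaf1 call of Cox8a was lost without siCtrl of batch 1. Cox6a1 rose by 0.62 ± 0.23 and 1.00 ± 0.23 (edgeR adjusted p = 0.0377 and 0.000975), and was -0.00 and 0.46 in 3'READS with neither past the threshold. Its siPaf1 call was lost without any 1 of the siCtrl and siCdc73 libraries, or siPaf1 of batch 1. Its siCdc73 call was lost without siCtrl or siCdc73 of batch 2. Cox7a1 rose by 2.21 ± 0.62 after siCdc73 (edgeR adjusted p = 0.00554) on few reads, from 0.978 and 1.85 CPM to 3.56 and 10.5, with siPaf1 at 0.719 and 1.74. That call was also lost without siCtrl or siCdc73 of batch 2. Of 7 markers of differentiated muscle 3 were listed in RNA-seq, none at 0 in every library, and their summed level was 6.85 to 22.9 CPM in siCtrl, 11.9 to 46.8 in siPaf1, 7.59 to 32.9 in siCdc73 and 20.1 in siSki8, and its part in the Cox7a1 change was not tested. In 3'READS, where 6 of the 7 were listed, that level was 74.9 to 102 CPM in siCtrl, 109 to 257 in siPaf1, 27.1 to 74.3 in siCdc73 and 120 in siSki8, and Cox7a1 was 0.79 ± 0.65 in siCdc73 (edgeR adjusted p = 0.412). Cox7a2, the form of subunit VIIa in most tissues, was measured by 3'READS alone, with 0.65 ± 0.26 in siCdc73 (edgeR adjusted p = 0.0874).

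In 3'READS, Cox7b, a small nuclear-encoded subunit, rose after siPaf1 (0.88 ± 0.27, edgeR adjusted p = 0.0297) and siCdc73 (1.23 ± 0.27, edgeR adjusted p = 0.0041). It was read at 229 and 77.5 CPM in siCtrl, 458 and 132 in siPaf1, 577 and 169 in siCdc73 and 72.9 in siSki8, so that the order siCtrl, siPaf1, siCdc73 held within each batch. The siPaf1 call was lost without either siCtrl library and the siCdc73 call without siCtrl of batch 1, and in the test without a batch term the siPaf1 value was -0.22 when siPaf1 of batch 1 was left out. Cox4i1, the main form of subunit IV, rose after siCdc73 by 0.85 ± 0.27 (edgeR adjusted p = 0.0356, and 0.0615 under library size alone). Neither gene was in the RNA-seq table. Cox5a, a subunit on the matrix side, was 0.18 ± 0.26 in RNA-seq and -0.25 ± 0.34 in 3'READS in siCdc73.

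In complex V, 3 of 8 subunits rose and 0 fell after siCdc73 in RNA-seq (3 and 1 under library size alone), where 19.4% of all genes rose and 20.5% fell. In 3'READS 2 of 15 rose and 1 fell, where these shares were 10.8% and 11.8%. The RNA-seq calls, of Atp5b, Atp5g1 and Atp5o, were all lost without the siCdc73 library of batch 2, and both rising calls in 3'READS without siCtrl or siCdc73 of batch 1. Atp5o, the subunit that ties the catalytic head to the peripheral stalk, rose in both assays. It stood at 189 and 318 CPM in siCtrl, 250 and 449 in siPaf1, 287 and 621 in siCdc73 and 473 in siSki8 in RNA-seq, and at 69.0 and 39.4, 120 and 64.6, 231 and 75.4, and 61.2 in 3'READS. The siCdc73 library was the highest of each batch in both assays. Atp5o rose by 0.79 ± 0.22 (edgeR adjusted p = 0.00569) and by 1.35 ± 0.29 (edgeR adjusted p = 0.00392), and the RNA-seq call was also lost without siCtrl of batch 2. Atp5b rose by 0.88 ± 0.23 in RNA-seq (edgeR adjusted p = 0.00246), from 2990 and 5820 CPM to 5310 and 11100, with siPaf1 at 3190 and 3160, and 3'READS gave 0.81 ± 0.29 (edgeR adjusted p = 0.0568). Atp5d, of the central stalk, rose in 3'READS by 0.92 ± 0.26 (edgeR adjusted p = 0.0183), and Atp5a1, the alpha subunit that pairs with Atp5b in the head, was 0.15 ± 0.27.

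Atp5g1, Atp5g2 and Atp5g3 encode the same mature c subunit of the rotor ring, and their assays were unequal. Atp5g2 was read 6064 times by 3'READS and 80 times by RNA-seq, whereas Atp5g1 was read 75 and 1273 times. Atp5g2 in 3'READS stood at 298 and 80.0 CPM in siCtrl, 129 and 49.4 in siPaf1, 90.5 and 36.3 in siCdc73 and 63.5 in siSki8. Every knockdown library was below siCtrl of its own batch, and Atp5g2 fell by 0.97 ± 0.28 after siPaf1 and 1.44 ± 0.28 after siCdc73 (edgeR adjusted p = 0.0229 and 0.002). The siPaf1 call was lost without siCtrl of batch 1, where the test without a batch term gave 0.15. Atp5g1 rose after siCdc73 in RNA-seq by 0.93 ± 0.28 (edgeR adjusted p = 0.0086), from 11.9 and 55.2 CPM to 24.6 and 98.9. That call was lost without siCtrl of batch 1 or siCdc73 of batch 2, and without the latter the test without a batch term gave -0.44. Atp5g3 was 0.58 ± 0.27 in 3'READS (edgeR adjusted p = 0.144).

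Of the 3 genes that are no subunits, Atp5sl, whose product takes part in assembly of complex I, rose after siCdc73 in both assays. It had 8.94 and 9.92 CPM in siCtrl, 20.4 and 17.8 in siPaf1, 25.1 and 31.0 in siCdc73 and 10.5 in siSki8 in RNA-seq, and the siSki8 value lay close to siCtrl while the other 4 knockdown libraries were higher. Atp5sl rose by 1.56 ± 0.32 (edgeR adjusted p = 0.000271) and, in 3'READS, by 1.61 ± 0.35 (edgeR adjusted p = 0.00417), and after siPaf1 by 1.04 ± 0.32 in RNA-seq (edgeR adjusted p = 0.0143). The siPaf1 call was lost without either siCtrl library or siPaf1 of batch 1. The siCdc73 call in 3'READS was lost without siCtrl of batch 2. Cox4nb, a subunit of the ER membrane complex, was 0.60, 0.65 and 1.11 in 3'READS with none past the threshold.

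**Figure D4:**
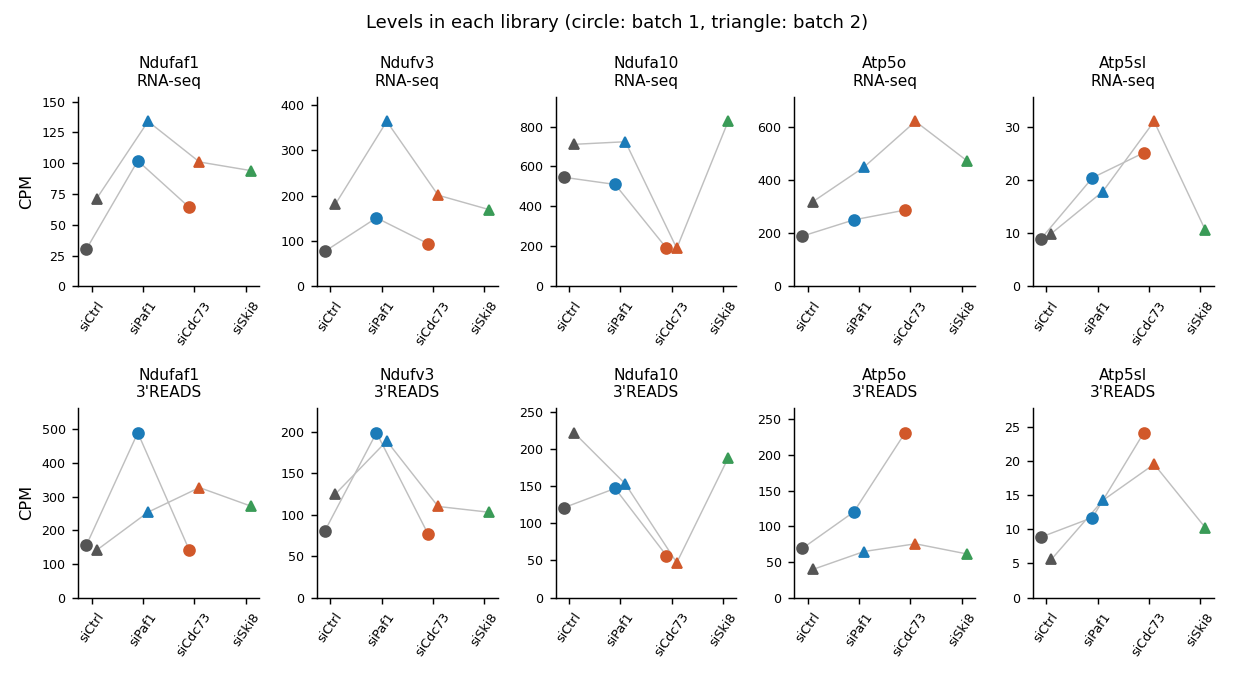
CPM in each library (upper row: RNA-seq, lower row: 3'READS; circles: batch 1, triangles: batch 2, lines join libraries of a batch; axes start at 0) for 5 genes that changed the same way in both assays after siPaf1 or siCdc73. Ndufa10 is lowest in siCdc73 in both batches and both assays, and Atp5sl is higher in each siPaf1 and siCdc73 library than in siCtrl of the same batch.

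The assays were compared over the 42 genes tested in both, and the labels do not say whether their libraries came from separate cells. After siPaf1, 3 genes rose in both, Ndufaf1 and Ndufv3 among them, which is 3 of the 6 that rose in RNA-seq and 3 of the 3 in 3'READS, where 6.15% of all genes tested in both rose in both. After siCdc73, 3 rose in both, among them Atp5o and Atp5sl (3 of 15 and 3 of 3), and Ndufa10 fell in both (1 of 4 and 1 of 4), where 9.02% of all genes rose and 10.3% fell in both. No gene was called in opposite directions in any knockdown. Across these 42 genes, which share their libraries within an assay and are not independent replicates, the log2 changes of the assays correlated with r = 0.46 in siPaf1, 0.83 in siCdc73 and 0.33 in siSki8, against 0.74, 0.78 and 0.49 over the 5610 genes tested in both.

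The siPaf1 and siCdc73 libraries were also compared with each other, without siCtrl. In RNA-seq 6 oxidative phosphorylation genes were higher in siPaf1 and 7 lower (14.6% and 13.6% over all genes), and in 3'READS 8 and 3 (8.08% and 6.3%). Under library size alone the counts were 10 and 5, and 14 and 2, where 21.6% of all genes were higher and 8.69% lower in RNA-seq and 12.6% and 4.05% in 3'READS. Without siPaf1 of batch 2 they were 12 and 5 (13.3% and 11.2% over all genes), and 13 and 2 (5.59% and 4.85%). Without siPaf1 of batch 1 they were 5 and 18 (16.2% and 17.4%), and 6 and 10 (11.7% and 9.26%), and without siCdc73 of batch 2 they were 2 and 0 (3.93% and 3.39%), and 3 and 1 (2.97% and 2.42%). Without siCdc73 of batch 1 they were 4 and 5 (6.51% and 6.46%), and 4 and 3 (6.94% and 4.52%). Atp5b was lower in siPaf1 than in siCdc73 in both assays, and Ndufa6, Ndufa8, Ndufa10, Ndufa13, Ndufv3 and Sdha were higher in both. This makes 7 of the 42 genes, where 10.9% of all genes were called the same way in both. The RNA-seq calls of Atp5b and of most of the other genes named here were lost without siCdc73 of batch 2. In complex I 5 subunits were higher in siPaf1 and 2 lower in RNA-seq, and 7 and 1 in 3'READS. In complexes III, IV and V no subunit was higher in siPaf1 in either assay, while 5 were lower in RNA-seq and 2 in 3'READS. Under library size alone 1 complex V subunit in RNA-seq, and in 3'READS 1 of complex III and 1 of complex IV, passed as higher in siPaf1.

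The assays did not see all genes alike. Cox8a was read 8611 times in RNA-seq and 3 times in 3'READS, and Ndufa1, Ndufb11 and Sdhd had 150, 49 and 37 PASS reads, so 3'READS could not resolve their changes at this depth. The 50 bases before the main last-exon site were found at 1 place in mm9 for 85 of the 88 members that had such a site, and at 2 places for Atp5h, Atp5l and Cox6b1, whose 3'READS counts are therefore uncertain. Atp5h had the widest batch gap among them, with 1150 and 158 CPM in siCtrl, 1090 and 512 in siPaf1, 1810 and 223 in siCdc73 and 99.0 in siSki8. Since only uniquely mapped reads were counted, copies of the coding regions elsewhere in the genome could lower RNA-seq counts, and this was not tested.

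Oxidative phosphorylation genes ended mostly at 1 place. Of the 75 with a mean of at least 20 PASS reads, 59 (78.7%) had a single site that reached 5% of the reads of the gene, against 42.9% of all 10117 genes at that depth, and 4 (5.33%) had an intron or internal exon site of that size, against 19.9%. The hexamer AATAAA lay within 40 bases upstream of the dominant site in 72.4% of 76 members and ATTAAA, where AATAAA was missing, in 19.7%, and 7.9% had neither, against 66.9%, 16.2% and 16.8% of 10014 genes. Intronic sites took 0.216% to 0.553% of the reads of members per library, against 2.12% to 3.28% for all genes. The siPaf1 libraries had 0.536% and 0.553%, siCdc73 0.296% and 0.495%, siCtrl 0.269% and 0.229% and siSki8 0.216%. Without Ndufa7 these fell to 0.0824% and 0.110%, 0.0619% and 0.0947%, 0.0605% and 0.0399%, and 0.0406%, so most of the intronic reads of each library came from 1 gene, while both siPaf1 libraries stayed above the others of their batch. The same held over all genes, so it was not particular to these members. The all-gene shares were 3.28% and 3.06% in siPaf1, 3.09% and 2.87% in siCdc73, 2.46% and 2.12% in siCtrl and 2.38% in siSki8.

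The sites whose reads are described next, of which the Ndufs4 pair, the Cox7b antisense site and the Atp5f1 and Atp5g3 intron sites passed a test with the batch, are shown as the 30 bases that end at the cleavage position, 5' to 3' on the strand of the transcript (mm9, with the AATAAA hexamer nearest to the cleavage position in capitals where there is one). Ndufs4 has 2 last-exon sites, Ndufa7 an intron site and a last-exon site, Cox7b an upstream antisense site and a last-exon site, and Atp5f1 and Atp5g3 a rare intron site.
Ndufs4 proximal, chr13:115078856-115078885, minus strand: tctcctAATAAAtgtgacctttaaactaca
Ndufs4 distal, chr13:115078011-115078040, minus strand: ttcaatacaaAATAAAaacaagtgtttgga
Ndufa7 intron, chr17:33962762-33962791, plus strand: AATAAAcaaacgtgaaaaaacaaccctaaa
Ndufa7 last exon, chr17:33975225-33975254, plus strand: tttgtaacaaatatatagaattccacatta
Cox7b upstream antisense, chrX:103210203-103210232, minus strand: cccagactggcctagaatttgcaattcttt
Cox7b last exon, chrX:103217268-103217297, plus strand: aaataaagaAATAAAgtaccttaaccttca
Atp5f1 intron, chr3:105761507-105761536, minus strand: agcaaAATAAAacctattgttttgggtgtc
Atp5g3 intron, chr2:73747151-73747180, minus strand: aaatgatgaaataatggtagcccttttgaa

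Of 13 members with 2 usable last-exon sites, Ndufs4 and Ndufb5 shifted toward the proximal site after siCdc73, and 0 members shifted after siPaf1 or siSki8, where 4.93% and 0.307% of the 4567 genes tested shifted that way (3.83% in siCdc73). At an unadjusted p under 0.05, 1 member shifted that way in siPaf1 and 2 in siSki8, where 12.7% and 6.94% of all genes did. Ndufs4 encodes a complex I subunit that is often mutated in Leigh syndrome, and its sites lie 845 bases apart in the 3'UTR. The proximal site, whose hexamer is shown above, took 74.9% and 66.5% of the reads of the pair in siCtrl, 73.1% and 80.6% in siPaf1, 91.3% and 97.2% in siCdc73 and 94.2% in siSki8. The siCdc73 and siSki8 libraries were above every siCtrl and siPaf1 library. On the log2 scale of proximal over distal reads the shift was 2.98 ± 0.52 in siCdc73 (edgeR adjusted p = 1.49e-05 over 4567 genes), 2.50 ± 0.65 in siSki8 (edgeR adjusted p = 0.0533) and 0.48 ± 0.48 in siPaf1 (edgeR adjusted p = 0.674). The siPaf1 shift was smaller than the siCdc73 shift by 2.50 ± 0.52 (edgeR adjusted p = 0.000613). Without the batch term the siCdc73 shift was 2.96 ± 0.78, with an unadjusted p of 0.00543 and an adjusted p of 1 in edgeR, and 0 of the 4567 genes passed.

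Total Ndufs4 reads in 3'READS were 77.1 and 102 CPM in siCtrl and 64.7 and 60.3 in siCdc73, a change of -0.52 ± 0.29 that was not past the threshold (edgeR adjusted p = 0.210). Ndufb5, another complex I subunit, went from a proximal share of 52.9% and 47% in siCtrl to 87.4% and 56.1% in siCdc73, with siPaf1 at 65.9% and 63.6% and siSki8 at 65.2%. Its siCdc73 shift was 1.57 ± 0.47 (edgeR adjusted p = 0.0315) but 2.62 within batch 1 and 0.52 within batch 2.

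Ndufa7, a complex I subunit of the peripheral arm, was read mainly at an intron site, as was 1 other member, Cox7b2, on 7 reads in all. The Ndufa7 site lies 1255 bases from the start in intron 2, where the annotated transcript Ndufa7-004 ends, and held 93.6% of the reads of the gene. It had 260 and 351 reads in siCtrl, 793 and 948 in siPaf1, 292 and 1167 in siCdc73 and 291 in siSki8, while the last-exon site had 80 and 3, 104 and 1, 80 and 9, and 2. On the CPM scale, the total of the gene was 51 and 33.5 CPM in siCtrl, 116 and 62.8 in siPaf1, 80.8 and 83.5 in siCdc73 and 33.3 in siSki8. All siPaf1 and siCdc73 libraries were above both siCtrl libraries, and the total rose by 1.06 ± 0.29 and 1.02 ± 0.30 (edgeR adjusted p = 0.0205 and 0.0216). The share of the intron site over the last exon was not resolved, at 1.52 ± 0.70 in siPaf1 (edgeR adjusted p = 0.105), and the siPaf1 expression call was lost when either siCtrl library or siPaf1 of batch 1 was left out, the siCdc73 call when either siCtrl library or siCdc73 of batch 2 was. Of the 4 members among the 1766 genes tested for such shifts (Atp5l, Ndufa1, Ndufa3 and Ndufa7), 0 passed in any knockdown with or without the batch term. With it 18.9%, 20.3% and 0.0566% of all genes rose in siPaf1, siCdc73 and siSki8. In siPaf1 with the batch, 1 member was higher at an unadjusted p under 0.05 in edgeR, as were 451 of the 1766 genes.

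A further edgeR fit kept every site, rare ones included, and its form with the batch was chosen after seeing the data. With the batch, 2 of its 10 members, Atp5g3 and Atp5f1 of complex V, shifted toward the intron after siPaf1 and Atp5g3 alone after siCdc73, where 6.62% and 9.21% of the 4352 genes tested did. Atp5g3 had 6 and 9 reads at its intron site in siCtrl, 43 and 80 in siPaf1, 23 and 71 in siCdc73 and 7 in siSki8. Atp5f1, a subunit of the peripheral stalk, had 0 and 2 in siCtrl, 20 and 32 in siPaf1, 1 and 2 in siCdc73 and 4 in siSki8. Both siPaf1 libraries were above every other library for Atp5f1, while siPaf1 and siCdc73 overlapped for Atp5g3.

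The shift in siPaf1 was 2.94 ± 0.64 on the log2 scale for Atp5g3 (edgeR adjusted p = 0.000261) and 4.51 ± 1.12 for Atp5f1 (edgeR adjusted p = 0.00212), and that in siCdc73 was 1.95 ± 0.65 for Atp5g3 (edgeR adjusted p = 0.0318). Between the knockdowns, siPaf1 exceeded siCdc73 for Atp5f1 by 3.96 ± 1.06 (edgeR adjusted p = 0.0211), a call that was lost without any 1 of the siPaf1 and siCdc73 libraries. Without the batch the siPaf1 shifts were 2.98 ± 1.11 and 4.70 ± 1.49, with edgeR adjusted p of 0.288 and 0.174. Both siPaf1 calls were lost without either siCtrl library, that of Atp5f1 also without siPaf1 of batch 2, and the siCdc73 call of Atp5g3 was lost without any 1 of the siCtrl and siCdc73 libraries. Without siCtrl of batch 2, which leaves a siCtrl library with 0 reads at the Atp5f1 intron site, the Atp5f1 value was 7.32 ± 2.43. The Cox7b intron site had 25 and 23 reads in siCtrl and 22 and 23 in siPaf1, and its value in siPaf1 was -1.36 ± 0.61 (edgeR adjusted p = 0.167). The sites of Atp5g3, Atp5f1 and Cox7b held 1.3%, 1.36% and 2.07% of the reads of their genes.

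Upstream antisense RNAs arise on the opposite strand before a start site. Of 10 such sites near members, that of Cox7b had the most reads. It lies 836 bases upstream of the Cox7b start and was read 16 and 36 times in siCtrl, 3 and 2 times in siPaf1, 0 times in both siCdc73 libraries and 37 times in siSki8. In RPM (over all PASS reads of the library) this was 2.17 and 3.67, 0.384 and 0.149, 0, and 4.46, and a count of 0 allows up to 3 reads, or 0.566 and 0.209 RPM in the siCdc73 libraries. Set against those 3 reads per siCdc73 library, the siCtrl level was 3.83-fold higher in batch 1 and 17.6-fold in batch 2. These 2 ratios leave out the counting error of siCtrl. Against siPaf1 the ratio was 5.64 (95% exact interval 1.62 to 30.2) in batch 1 and 24.6 (6.34 to 211) in batch 2, where intervals cover counting error only.

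Relative to the sense reads of Cox7b, the fall was past the threshold in siCdc73 without the batch (edgeR adjusted p = 6.68e-05 over 1109 genes, where 0.18% fell) and with it (3.35e-09, where 0.361% fell). In siPaf1 the adjusted p was 0.114 without and 7.38e-05 with the batch in edgeR, where 0.631% fell with it. The sense reads of Cox7b rose at the same time (above), so the ratio moved from both sides, and the siCdc73 call without the batch was lost when siCdc73 of batch 1 was left out (edgeR adjusted p = 0.149) and when at least 30 antisense reads were required (0.0563). The antisense sites of the other members with at least 10 reads, Ndufab1, Cox7a1 and Ndufs5, had at most 9 reads per site and library. Their values lay above 0 in siPaf1 and siCdc73 with the batch (3.08 to 5.59 on the log2 scale) with none past the threshold, and over all genes 1.44% and 1.8% rose.

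**Figure D5:**
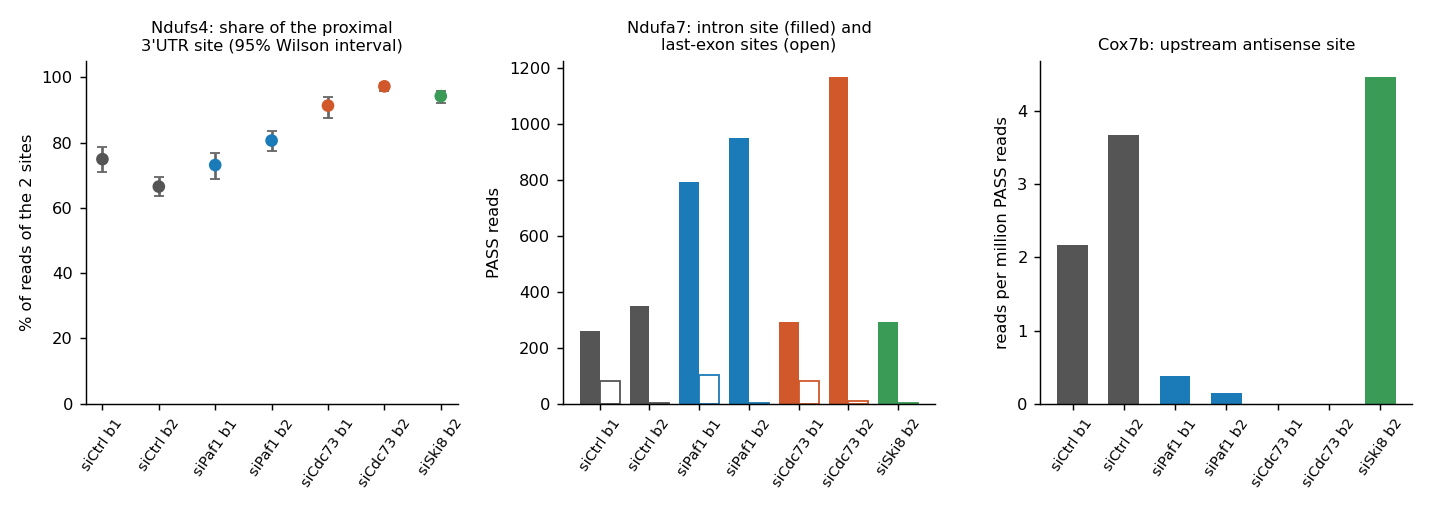
Left, share of the proximal site among the reads of both Ndufs4 sites in each library, with 95% Wilson intervals; middle, PASS reads at the Ndufa7 intron site (filled bars) and last exon (open bars); right, RPM over all PASS reads at the Cox7b upstream antisense site (b1 and b2: batches). The Ndufs4 share is over 90% in siCdc73 and siSki8, and the Cox7b antisense bars are absent in siCdc73, where 0 reads were found.

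RefSeq promoters (GRCm38.p6, 250 bases before to 50 after the start) were found by gene identifier or symbol for 74 members. A gene was counted if any of its promoters held the motif. The palindromic recognition word of NRF1, a regulator of nuclear genes for respiration, was present on either strand in 6 of the 74 (8.1%) against 1.07% of 27025 genes, and a looser form that includes it, with any base at the sixth position, in 18 (24.3%) against 5.19%. Those 27025 were all genes with such a promoter and were not limited to genes tested here. A form of the YY1 site was found in 6.8% against 0.755%, and CCGGAAGT, bound by ETS factors such as GABP, in 6.8% against 4.31%, both strands searched. The 6 with the full NRF1 word are shown with 10 bases on each side, on the strand of the gene and with the word in capitals.
Atp5g2, chr15:102671070-102671099, minus strand: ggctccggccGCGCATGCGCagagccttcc
Atp5k, chr5:108434430-108434459, minus strand: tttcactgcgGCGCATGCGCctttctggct
Cox6a1, chr5:115349101-115349130, minus strand: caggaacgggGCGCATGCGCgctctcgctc
Ndufa11, chr17:56717692-56717721, plus strand: cctgcactgcGCGCATGCGCgcacgccttg
Ndufaf4, chr4:24897960-24897989, plus strand: ccagatgtctGCGCATGCGCctgtgcggaa
Uqcrc1, chr9:108936668-108936697, plus strand: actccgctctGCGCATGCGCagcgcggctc
After siCdc73, Cox6a1, Ndufa11 and Uqcrc1 of these 6 rose and 0 fell in RNA-seq (19.4% and 20.5% over all genes). These RNA-seq calls were all lost without the siCdc73 library of batch 2. In 3'READS Atp5g2 alone passed, a fall (10.8% rose and 11.8% fell over all genes). Atp5g2 was -0.38 ± 0.72 in RNA-seq (edgeR adjusted p = 0.698), and Atp5k and Ndufaf4 did not pass the threshold in either assay. Nrf1 itself fell by 0.65 after siPaf1 (edgeR adjusted p = 0.0384) and was -0.52 in siCdc73 (edgeR adjusted p = 0.0844) in RNA-seq.

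Related gene groups were read from the same fits, and the genes named from them were chosen after their values were seen. Of 28 tested mitochondrial ribosomal protein genes in RNA-seq 5 rose and 3 fell after siPaf1, 9 rose and 1 fell after siCdc73 and 2 rose after siSki8. Of 74 in 3'READS 3 rose and 11 fell, 9 rose and 15 fell, and 0 passed. After siSki8 in 3'READS 8 were higher at an unadjusted p under 0.05 in edgeR, as were 5.75% of all genes. Over all genes 16.3% rose and 16.2% fell, 19.4% and 20.5%, and 2.93% and 2.5% in RNA-seq, and 9.74% and 9.08%, 10.8% and 11.8%, and 0.0795% and 0.0715% in 3'READS. Mrpl39 rose in both assays after both siPaf1 (1.03 and 1.20) and siCdc73 (1.3 and 1.6), and Mrpl18 fell in both after siPaf1 (by 1.69 and by 1.83). Of 11 assembly factors and carriers outside the symbol rule in RNA-seq, 2 rose and 2 fell after siPaf1 and 2 rose and 5 fell after siCdc73, among them Bcs1l, which inserts the Rieske protein into complex III and fell by 1.56 (edgeR adjusted p = 9.84e-05). Of 27 in 3'READS, 3 rose and 2 fell, and 4 rose and 2 fell.

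Glycolysis and the citrate cycle, which feed the respiratory chain, had different counts in RNA-seq after siCdc73, a difference that was not tested. Of 11 glycolysis genes 7 rose and 1 fell, with a median of 0.60. Of 7 genes of the citrate cycle 1 rose and 3 fell, with a median of -0.21. The all-gene shares for siCdc73 were 19.4% rising and 20.5% falling. With siPaf1 the counts were 3 and 1 for glycolysis and 0 and 2 for the citrate cycle. There the all-gene shares were 16.3% rising and 16.2% falling. Aldoa rose by 1.36 (edgeR adjusted p = 1.47e-05) in RNA-seq and 1.53 in 3'READS, and Fh1, the fumarase gene, fell by 0.95 and by 1.49 (edgeR adjusted p = 0.00109 and 0.00402). Of 18 glycolysis genes in 3'READS 4 rose and 0 fell after siCdc73, with a median of 0.47, and of 13 citrate cycle genes 1 rose and 2 fell, with a median of 0.18 (10.8% rose and 11.8% fell over all genes), so the citrate cycle medians of the assays differed in sign. Among 12 regulators of mitochondrial biogenesis in RNA-seq, Ppargc1b, a coactivator of NRF1 and related factors, fell after siPaf1 and siCdc73 (by 1.11 and by 2.03) and Tfb1m, a mitochondrial rRNA methyltransferase, did likewise (by 1.68 and by 1.55), which with Nrf1 made 3 falling after siPaf1 (16.2% of all genes fell), and 3 rose and 2 fell after siCdc73. Of 14 regulators in 3'READS 0 passed after siPaf1, and 2 rose and 0 fell after siCdc73 (10.8% and 11.8% over all genes). At an unadjusted p under 0.05 in edgeR, 1 was lower in siPaf1, and 3 were higher and 1 lower in siCdc73. Over all genes 15.6% were lower in siPaf1, and 17.0% were higher and 17.5% lower in siCdc73. Tfb1m was -0.48 ± 0.95 in siPaf1 and -2.33 ± 1.09 in siCdc73 there (edgeR adjusted p = 0.762 and 0.139) at 3.4 CPM or less in each library, Nrf1 was -0.17 ± 0.34 in siPaf1 (edgeR adjusted p = 0.766), and Ppargc1b, under 1 CPM in every library, was not tested.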

How the data were processed

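RNA-seq and 3'READS libraries of C2C12 cells after siCtrl, siPaf1, siCdc73 or siSki8 transfection were analysed; the ChIP-seq libraries of the series were not used here. Reads had been aligned by the authors to mm9 (Bowtie2, local mode), who deposited RNA-seq counts and RPKM values of uniquely mapped reads on the coding regions of RefSeq transcripts, from a strand-specific protocol, and 3'READS counts of PASS reads, which carry at least 2 non-genomic T at their start, for each pA site. Versions of the mapping tools are not given in the sources used here. Where RNA-seq listed several transcripts of a gene, that with the largest mean count was used, and in 3'READS by the sum of its sense sites.

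All genes were fitted together with edgeR 4.0.16 (quasi-likelihood, TMM scaling, filter on low counts, Benjamini-Hochberg adjustment, threshold 0.05) in R 4.3.3, all 7 libraries of an assay in 1 model, first without and then with the batch. CPM are TMM-scaled. The labels mark the batch by the replicate number: batch differences correlated between the siRNA groups by r = 0.62 to 0.75 in RNA-seq and 0.43 to 0.61 in 3'READS over all genes, so same-numbered libraries were treated as paired. Isoform shifts were tested as the interaction of isoform and knockdown, with sites of at least 5% of the reads of the gene and a mean of at least 20 reads (antisense: 10 reads in all libraries together), and antisense reads were set against all sense reads. The alternatives were DESeq2 1.42.0, library size alone, no filter, stricter minimums, 3'-most exon sites alone, pooled reads with Fisher's exact test, and each library left out. The fits were tested on simulated data. Ratios of single libraries use exact conditional intervals, and shares use Wilson intervals (95%).

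Genes were named by rule: up to 4 members per direction, assay and knockdown with the smallest p in the fit with the batch, changed the same way in both batches with a mean of at least 50 reads, the catalytic core, the tissue isoform families, up to 3 members per direction for isoform shifts, members with an intron site of at least 5%, up to 4 with the most antisense reads, the highest and lowest per complex, the targets, and the 3 that are no subunits. Others were named after their values were seen. Some results that the rule names are not reported here, though counts and medians cover every member. The members and lists were chosen with earlier results of these data known. Promoters came from RefSeq (GRCm38.p6) and coding lengths and transcripts from GENCODE on mm9. Figures were drawn with matplotlib 3.10.9.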

Additional observations from a re-analysis of the deposited data

Results flagged for a closer look

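For 7 genes the siPaf1 and siCdc73 effects differed from each other in both assays, by the edgeR test of siPaf1 against siCdc73 with the batch in the fit, while without the batch this test called 0 of them in either assay. Ndufa10 was higher in siPaf1 than in siCdc73 by 1.67 (RNA-seq) and 1.53 (3'READS) on the log2 scale, Sdha by 1.20 and 0.93, Ndufa6 by 1.12 and 0.97, Ndufa8 by 0.96 and 0.90, Ndufv3 by 0.77 and 1.09 and Ndufa13 by 0.70 and 0.84. Atp5b was lower in siPaf1, with -1.24 and -1.09. Each rests on 2 libraries per group and assay. Without the siCdc73 library of batch 2 Atp5b lost its RNA-seq call, as did most of the genes that were higher in siPaf1.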

How the results depend on the processing

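Without a batch term edgeR called 0 oxidative phosphorylation genes in expression in each comparison. Counts are given below as the total in both directions. With the batch term (the replicate block) the calls were 7 (siPaf1), 20 (siCdc73), 1 (siSki8) and 13 (siPaf1 against siCdc73) in RNA-seq, and 8, 17, 0 and 11 in 3'READS. With it and without siPaf1 of batch 2 they were 14, 25, 3 and 17, and 9, 36, 2 and 15. For siSki8 in those fits 9.12% of all genes rose and 6.95% fell in RNA-seq, and 1.83% and 1.88% in 3'READS. With the block and library size alone, chosen after seeing the data like the fits with the block that left out other libraries, the calls were 7, 21, 1 and 15, and 9, 19, 0 and 16. DESeq2 without the block called 3 (siCdc73) and 1 (siPaf1 against siCdc73) in RNA-seq and 2 and 1 in 3'READS. Reads pooled over batches, with 1.4-fold and Fisher's exact test, called 13, 23, 12 and 19 of 47 in RNA-seq (39.5%, 45.0%, 40.1% and 37.5% of all 7906 genes), which compares libraries, not conditions. The block also gave 2 shifts between last-exon sites in siCdc73, 1 in siPaf1 against siCdc73, and 1 antisense fall in siPaf1. With it and all sites kept, chosen after seeing the data, 2 (siPaf1), 1 (siCdc73) and 1 (siPaf1 against siCdc73) members shifted toward intron sites, against 0 without it. The antisense call in siCdc73 was 0 at a minimum of 30 antisense reads and 0 to 1 over the fits without 1 library.

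The siPaf1 median in RNA-seq (0.20 without the block) was 0.47 with the block and without siPaf1 of batch 2, and -0.19 to 0.75 over fits without 1 library. The siCdc73 median (0.27) was 0.10 by library size alone, 0.09 with the block added, 0.01 for pooled reads and -0.16 to 1.14 without 1 library. The siSki8 median was 0.06, -0.10 and 0.07 under these settings, 0.08 with the block and without siPaf1 of batch 2, and 0.03 to 1.13 without 1 library. In 3'READS the siCdc73 median was 0.13 with the block, 0.10 with it and without siPaf1 of batch 2, 0.03 with it by library size alone, 0.06 by library size alone, 0.14 without a filter, 0.19 in DESeq2, 0.20 for 3'-most exon sites and 0.04 to 0.30 without 1 library. Of the named genes called with the block, 5 changed sign without it when 1 library was left out (genes called in neither fit were not counted): in siCdc73 Ndufa6 (-1.39 to 0.01, the latter without siCtrl of batch 2), Ndufa2 (-1.89 to 0.32, likewise) and Atp5g1 (-0.44 to 2.37, the former without siCdc73 of batch 2), and in siPaf1 Atp5g2 (-1.94 to 0.15, the latter without siCtrl of batch 1) and Cox7b (-0.22 to 1.92, the former without siPaf1 of batch 1). The cause was not tested. With 2 libraries per group, and 1 for siSki8, small differences were not detectable at this depth.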
